A study of Danio rerio with 3 samples.

Results

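Genes of the blood vessel wall and of the VEGF signal that guides its growth were followed in zebrafish embryos kept in LY-364947, an inhibitor of the TGF-β receptor 1 kinase. The list held 10 symbols, and 9 of them were found among the gene symbols of the array's probe annotation: the ligand gene vegfaa, the VEGF receptor genes kdrl, kdr, flt1 and flt4, the Tie receptor genes tie1 and tek, the cadherin gene cdh5 and the water channel gene aqp1a.1. These 9 genes, with 15 probes, were taken by name out of 15571 genes on 43603 probes. The listed symbol fli1a does not occur in the annotation, where the gene is entered as fli1. It was not counted as a member and is described beside the members.

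Per the labels, the animals were wild type embryos of strain Ab, and whole embryos were collected at 48 hours post fertilisation, with 10 to 15 embryos in each replicate. The treated group of 3 replicates was in 40 µM LY-364947 from 8 hours post fertilisation onwards, and the control was 1 pool of RNA from 3 untreated replicates. Each treated replicate was hybridised against that pool on its own 2-colour array. The treated RNA carried Cy3 for replicates 1 and 3 and Cy5 for replicate 2.

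Endothelial cells line every vessel and sense VEGF through receptor tyrosine kinases on their surface. Angiopoietins signal through the Tie receptor Tek to steady the vessel wall, VE-cadherin joins neighbouring endothelial cells, and ETS transcription factors such as Fli1 switch on the endothelial programme. In the zebrafish at this stage the trunk circulation is running, and VEGF-A made by tissues around the vessels drives arterial growth and sprouting.

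Each value is a log ratio of the 2 channels as the authors deposited it, read here on base 2, with the sign of replicate 2 turned so that all 3 arrays run in the sign of replicates 1 and 3. The sources do not settle which RNA stands in the numerator, so a value is said to lie on the positive or the negative side, and neither side is claimed to be the treated one. The sample titles put the treated replicate before the pool for replicates 1 and 3 and after it for replicate 2. They do not say whether this is the order of the ratio. As deposited, replicate 2 correlated with replicate 1 at r = -0.742 and with replicate 3 at r = -0.647 over all probes, while replicates 1 and 3 correlated at 0.521. Each gene's mean ratio was set against 0 in a limma fit, with Benjamini-Hochberg adjustment over all genes, and a gene passed, and was called positive or negative by its sign, at an adjusted p under 0.05. The pool is present in every ratio and its own error cannot be seen by this test. In RNA of whole embryos, fewer cells of a type and less RNA per cell cannot be told apart, and the files hold ratios without levels, so the presence of endothelium could not be checked by the level of its markers.

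Of the 9 measured members, 1 was called negative (vegfaa) and 1 positive (aqp1a.1), and 7 did not pass. Over all genes, 19.4% passed, with 9.92% of all genes called positive and 9.43% negative, so the members' count lies near the background. The receptors and cdh5 had small ratios, from -0.12 for flt4 to 0.12 for cdh5. The median ratio of the members was 0.045, beside -0.0013 over all genes, and the median size was 0.10, beside 0.089. The median ratio was 0.021 without replicate 1, 0.078 without replicate 2, 0.012 with the median of each gene's probes, 0.013 with array weights and -0.016 with each gene's most variable probe, so its sign is not settled. All 3 arrays had 1 sign for 5 of the 9 members, against 52.3% of all genes.

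**Figure D1:**
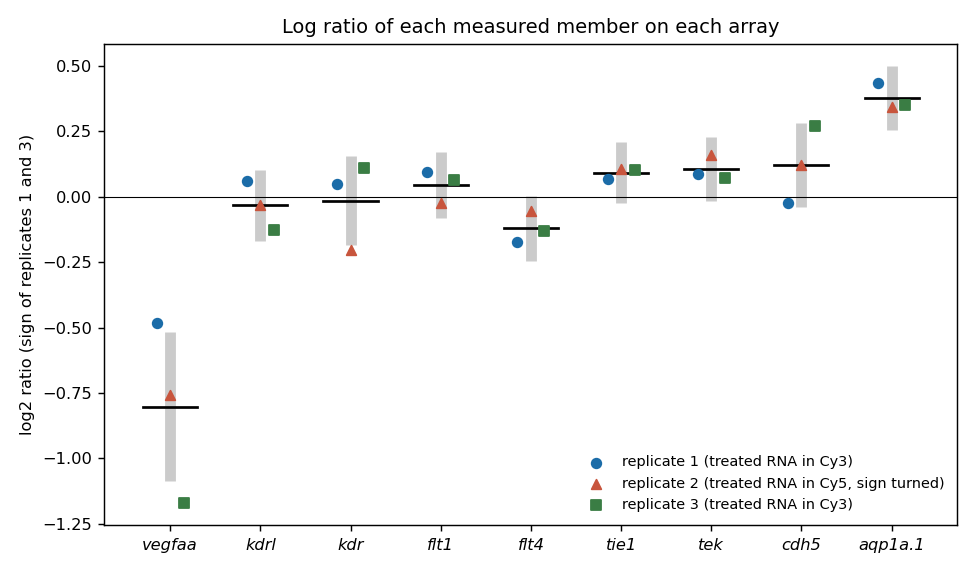
Log2 ratio (vertical axis) of the 9 measured members on the 3 arrays, with 1 symbol per replicate, a black line for the mean and a grey bar for limma's 95% interval. vegfaa lies wholly below 0, between -1.17 and -0.48, and aqp1a.1 wholly above 0, between 0.34 and 0.44, while the intervals of the other genes include 0.

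vegfaa encodes one of the zebrafish VEGF-A proteins, the main growth signal for endothelial cells. Its log2 ratios were -0.48, -0.76 and -1.17 for replicates 1, 2 and 3. All 3 arrays lay on the negative side, and replicate 3 lay furthest from 0 and replicate 1 nearest to it. The mean was -0.80 ± 0.35 (SD, n = 3), a 1.75-fold difference (95% interval 1.43 to 2.13 by limma, adjusted p = 0.00506). Only 1.31% of genes had a mean ratio of larger size, and 62 genes lay further to the negative side. The 3 arrays were also further apart for vegfaa than for most genes, since 98.5% of genes had a smaller SD. limma draws the variance of each gene towards that of all genes. The interval and adjusted p of vegfaa thus rest on a smaller variance than its own arrays gave. On the log2 scale the interval ran from -1.09 to -0.52, and replicates 1 and 3 lay outside it. A test on the gene's own variance alone was not run. The arrays with treated RNA in Cy3 averaged -0.83, from -0.48 and -1.17, and the swapped array had -0.76, between them. With 1 swapped array and this spread, a dye effect cannot be judged from these values. vegfaa passed without each replicate in turn, at limma adjusted p values of 0.00137, 0.0441 and 0.000164 without replicates 1, 2 and 3. With a dye term it passed at 0.0266, where 9.41% of all genes passed. The fits on 2 arrays and the fit with a dye term keep 1 residual degree of freedom and lean on the variance of all genes. Without replicate 2 no swapped array is left, so that fit cannot guard against a dye effect. A single probe, A_15_P113354, measured this gene.

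The duplicated gene vegfab, the other zebrafish VEGF-A gene, was measured by 2 probes. Its log2 ratio was 0.0076, -0.078 and -0.21 on replicates 1, 2 and 3, a mean of -0.094 ± 0.11 that did not pass (limma adjusted p = 0.342). The probe averages were -0.19 and 0.0018, and neither passed in the fit over all probes. The difference between the ratios of vegfaa and vegfab was not tested. vegfc, the ligand that acts on Flt4 in veins and lymphatics, lay on the positive side at 0.25, 0.22 and 0.19, a mean of 0.22 ± 0.031 (adjusted p = 0.0243). Its call was lost without replicate 1 (adjusted p = 0.0968), without replicate 2 (0.174) and with a dye term. The single probe of vegfc did not pass in the fit over all probes (limma adjusted p = 0.0507). vegfd had 0.086 and did not pass (adjusted p = 0.284).

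The 4 VEGF receptor genes all failed to pass, and at an unadjusted p under 0.05 by limma 0 of the 4 did. The share of all genes at that unadjusted threshold was not counted. It cannot lie below 19.4%, the share that passed after adjustment. kdrl and kdr encode the zebrafish receptors that act as VEGF receptor 2, which carries most of the VEGF-A signal. kdrl had 0.061, -0.031 and -0.13 for replicates 1, 2 and 3, and kdr had 0.049, -0.21 and 0.11. The arrays of both genes straddled 0. Their means were -0.033 ± 0.095 for kdrl (95% interval -0.17 to 0.10, adjusted p = 0.750) and -0.016 ± 0.17 for kdr (-0.19 to 0.16, adjusted p = 0.913). The largest change inside these intervals is 1.13-fold for kdrl and 1.14-fold for kdr. This is no firm limit, since the intervals are those of probe averages and leave out the pool's error. The kdrl probes averaged 0.050 and -0.12, on opposite sides of 0, and the interval of the second reached -0.27 in the fit over all probes. The kdr probes averaged -0.016 and -0.015, with opposite signs on replicate 1 (0.19 and -0.088) and intervals reaching -0.23 and -0.20.

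flt1 encodes VEGF receptor 1, which also occurs as a soluble trap for VEGF-A. Its log2 ratios were 0.093, -0.022 and 0.063, a mean of 0.045 ± 0.060 (95% interval -0.080 to 0.17, limma adjusted p = 0.619). Its 3 probes differed. In the fit over all probes 10.4% passed, 5.46% called positive and 4.91% negative, and of the 15 member probes only those of vegfaa and aqp1a.1 did. One flt1 probe, A_15_P178471, had 0.21, 0.21 and 0.17, a mean of 0.20 with an adjusted p of 0.0708 in that fit. The others averaged -0.0037 and -0.059, with an adjusted p of 0.981 and 0.699. The range of 0.26 between the probe averages was wider than in 84.5% of the 6095 genes with more than 1 probe, where the median range was 0.11. Those genes were not matched for the number of probes, and a range tends to widen with more probes.

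flt4, the receptor of Vegfc and a gene of veins and lymphatics, came nearest to a call among the receptors. All 3 arrays lay on the negative side, at -0.17, -0.056 and -0.13, with a mean of -0.12 ± 0.060 (95% interval -0.25 to 0.0040, limma adjusted p = 0.166). The probe A_15_P195331 averaged -0.22 (adjusted p = 0.0971 over all probes) and the probe A_15_P113845 averaged -0.020 (0.878). The gene's average therefore came almost wholly from the first probe.

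**Figure D2:**
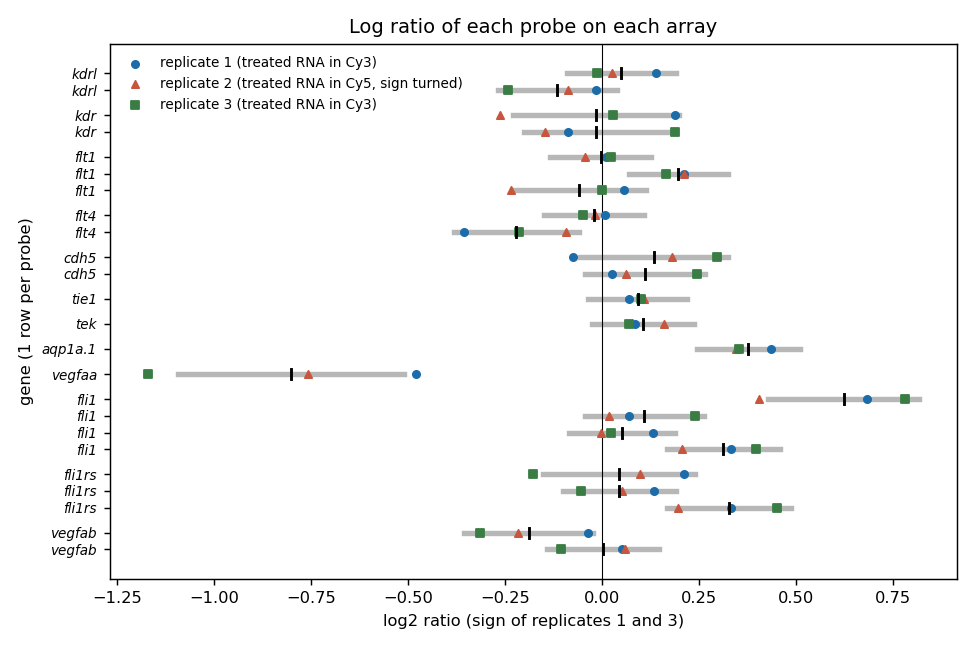
Log2 ratio (horizontal axis) of each probe, 1 row per probe, for the members and for fli1, fli1rs and vegfab, with symbols for the 3 replicates, a black tick for the mean and a grey bar for limma's 95% interval in the fit over all probes. The averages of the 2 kdr probes lie together at -0.016 and -0.015, but on replicate 1 the probes have opposite signs (0.19 and -0.088). The averages of the 4 probes of fli1 spread from 0.051 to 0.62.

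Receptor partners of the VEGF receptors were measured as well. Of the 9 genes for receptors and coreceptors, the members included, 1 passed on each side and 7 did not pass, with a median of -0.016. nrp2b, a neuropilin coreceptor, stood at 0.36 ± 0.086 (limma adjusted p = 0.00588) and lost its call without replicate 2 (adjusted p = 0.0655). Of its 3 probes, 2 passed in the fit over all probes. plxnd1, the endothelial semaphorin receptor that restrains VEGF-driven sprouting, stood at -0.23 ± 0.050 (adjusted p = 0.0240), and its call was lost without replicate 1 (0.0843) and without replicate 2 (0.202).

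The Tie receptor genes had nearly the same ratio. tie1, an orphan receptor that modulates Tek signalling, had 0.068, 0.11 and 0.10 on replicates 1, 2 and 3. tek, the angiopoietin receptor Tie2, had 0.086, 0.16 and 0.070. Every array of both genes was on the positive side. The means of 0.092 ± 0.021 for tie1 (95% interval -0.025 to 0.21, adjusted p = 0.255) and 0.10 ± 0.047 for tek (-0.017 to 0.23, adjusted p = 0.215) did not pass by limma. Each was measured by 1 probe. The angiopoietin gene angpt2b, a ligand of Tek, lay on the negative side at -0.19, -0.23 and -0.54, a mean of -0.32 ± 0.19 (adjusted p = 0.0304), and lost its call without replicate 2 (0.113). angpt2b also lost its call with a dye term. Its single probe did not pass in the fit over all probes (limma adjusted p = 0.0542). Of the 4 measured genes for angiopoietins and Tie receptors, angpt2b alone passed in the fit over genes, and the median of the list was 0.098.

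cdh5 encodes VE-cadherin, the adhesion protein of endothelial junctions. Its log2 ratios were -0.025, 0.12 and 0.27 for replicates 1, 2 and 3, so the arrays ran from just below 0 to clearly above it. The mean was 0.12 ± 0.15 (95% interval -0.039 to 0.28, limma adjusted p = 0.271). Its probes averaged 0.13 and 0.11. The first lay below 0 on replicate 1 (-0.075), and the second was above 0 on all 3 arrays (0.025, 0.061 and 0.24). Without replicate 1 the mean was 0.20 and without replicate 3 it was 0.048, and it did not pass in either fit (adjusted p = 0.133 and 0.667).

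aqp1a.1 encodes an aquaporin, a water channel of vessel endothelium whose mammalian counterpart is also abundant in the red blood cell membrane. Its log2 ratio was 0.44, 0.34 and 0.35 on replicates 1, 2 and 3. All arrays lay on the positive side and close together. The mean was 0.38 ± 0.051 (SD, n = 3), with a 95% interval of 1.19-fold to 1.41-fold (limma, adjusted p = 0.00365), and 7.98% of genes had a mean of larger size. It passed without replicate 1 (adjusted p = 0.0156), without replicate 2 (0.0449), without replicate 3 (0.00116) and with a dye term (0.0290). It was measured by the single probe A_15_P206891. Its tandem neighbour aqp1a.2 was not matched in the annotation.

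Other water channels are the nearest relatives of aqp1a.1 by function. Of 15 measured aquaporin genes, aqp1a.1 included, 4 were called positive and 1 negative, with a median of 0.083. aqp8a.1 stood at 0.48 ± 0.11 (limma adjusted p = 0.00264) and aqp11 at 0.29 ± 0.060 (0.0101), while aqp12 lay on the negative side at -0.48 ± 0.17 (0.00538). The probes of aqp11 averaged 0.76 and -0.17, on opposite sides of 0, so its value cannot be assigned to the gene as a whole. Its call was also lost without replicate 2 (adjusted p = 0.118), where 3 genes of the list passed.

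**Figure D3:**
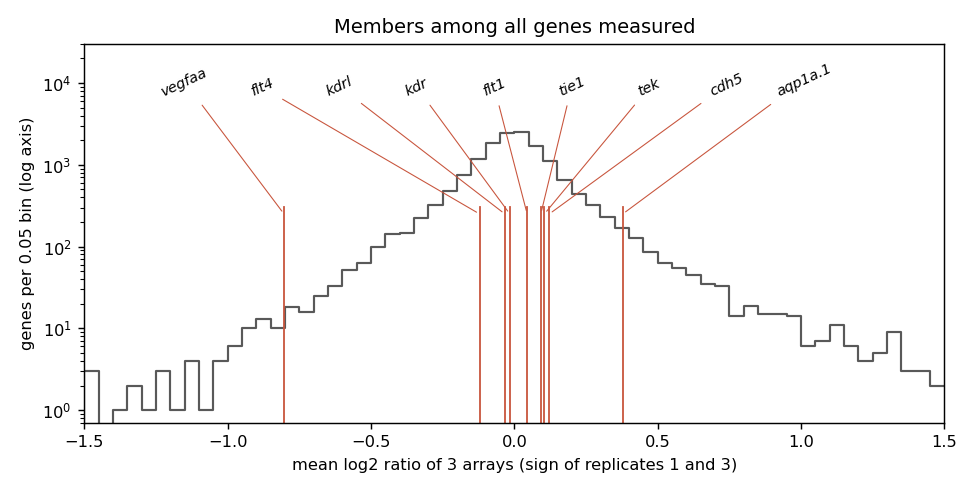
Number of genes per 0.05 bin of mean log2 ratio (grey step line, log vertical axis), with the mean of each measured member as a vertical line. The line for vegfaa lies in the thin negative tail, that of aqp1a.1 on the positive shoulder, and the lines of the other members in the central mass; 29 genes beyond 1.5 in size are outside the plotted range.

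The gene for the ETS factor Fli1, the listed fli1a, was measured by 4 probes under the symbol fli1. Its averaged log2 ratio was 0.30, 0.16 and 0.36 on replicates 1, 2 and 3, all on the positive side. The mean of 0.27 ± 0.11 is a 1.21-fold difference and passed (limma adjusted p = 0.0199), which with this gene counted would make 3 of 10 past the threshold. The probes did not give 1 answer. A_15_P109368 averaged 0.62 (adjusted p = 0.00548 over all probes) and A_15_P211936 averaged 0.31 (0.0233), while A_15_P200821 had 0.11 (0.377) and A_15_P200826 had 0.051 (0.671). The range of 0.57 between probe averages exceeded that of 98.1% of genes with more than 1 probe. Those genes were not matched to the 4 probes of fli1, and a range tends to widen with more probes. The call was lost without replicate 1 (adjusted p = 0.0692), without replicate 2 (0.0662) and with a dye term (0.0841).

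The related ETS gene fli1rs, for which fli1b is a synonym in the RefSeq table, had 0.23, 0.12 and 0.074, a mean of 0.14 ± 0.079 that did not pass (limma adjusted p = 0.134). One of its 3 probes passed, with an average of 0.33 (adjusted p = 0.0267), and the others averaged 0.043 and 0.045. Among 19 endothelial transcription factor genes, 3 were called positive and 0 negative by limma, with a median of 0.071. At an unadjusted p under 0.05, where at least 19.4% of all genes lie, 5 were positive and 1 negative. Besides fli1, those called positive were tal1, a blood and endothelial factor, at 0.31 ± 0.12 (adjusted p = 0.0160) and klf2a, a gene that responds to blood flow, at 0.29 ± 0.12 (0.0193). tal1 lost its call without replicate 2 (adjusted p = 0.147), and klf2a without replicate 1 (0.0698) and without replicate 2 (0.171). Without replicate 3, 7 genes of this list passed, against 1 without replicate 1 and 0 without replicate 2 (3 at an unadjusted p under 0.05). erg (0.16, adjusted p = 0.130) and etsrp, the early endothelial regulator also called etv2 (0.094, adjusted p = 0.347), did not pass.

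Beyond the members, 177 further genes were measured from 14 lists on vessels, the cells around them, oxygen sensing and aquaporins. They were fixed by name with earlier results of these data known. Of these 177, 26 were called positive and 22 negative, with a median of 0.017. Without the lists for the brain vessel barrier, oxygen sensing, mural cells, erythroid cells and aquaporins, 108 genes remained. Of these 108, 19 were called positive and 10 negative, with a median of 0.030. The shares over all genes, 9.92% positive and 9.43% negative, are the background for these counts and for the count of every list past the adjusted threshold. No list was tested against them. Of the 48 listed genes that passed, 14 passed without each of the replicates in turn, and 20 passed with a dye term. The number past the threshold was 28 without replicate 1 and 15 without replicate 2, where 1 residual degree of freedom is left, and 60 without replicate 3. Over all genes the count also moved down and up from 3013 with the replicate left out, over the range given in the last section. A call lost without 1 replicate is therefore not particular to the gene named, here or in the other paragraphs.

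Of 31 genes listed for the junctions and surface of endothelium, cdh5 included, 5 were called positive and 2 negative, with a median of 0.043. Some of the listed genes, such as unc45b and ldb2a, do not encode junction or surface proteins. cldn5b, a claudin of endothelial tight junctions, had 0.45, 0.51 and 0.51 on replicates 1, 2 and 3, a mean of 0.49 ± 0.035 (limma adjusted p = 0.00126). The genes on the negative side were cldn5a (-0.48 ± 0.25, adjusted p = 0.0140), a claudin of the neuroepithelium in the zebrafish brain, and jam3b (-0.42 ± 0.012, adjusted p = 0.00202), which also acts in muscle cell fusion. cldn5a ran from -0.73 on replicate 1 to -0.22 on replicate 3, and lost its call without replicate 2 (0.0990). The probes of jam3b averaged -0.96, -0.29 and -0.015, of which the last did not pass (adjusted p = 0.935). Without replicate 2, 2 genes of the list passed, and without replicate 1, 4 did.

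Arterial and venous genes lay on both sides. Of 16 arterial genes, 3 passed on each side, with a median of 0.022. notch1a, a Notch receptor that is also prominent in the nervous system, stood at -0.67 ± 0.17 (limma adjusted p = 0.00161), gja5b, a connexin gene, at 0.33 ± 0.14 (0.0150) and notch3, a Notch receptor of mural and neural cells, at -0.24 ± 0.038 (0.0183). gja5b lost its call without replicate 2 (adjusted p = 0.0942), and notch3 without replicate 1 (0.0710) and without replicate 2 (0.115). Only 1 of the notch3 probes passed (-0.43), and the other averaged -0.054. The arterial count was 2 without replicate 1 and 1 without replicate 2. Of 12 venous and lymphatic genes, prox1a was called positive at 0.86 ± 0.15 (adjusted p = 0.000467) and lyve1a negative at -0.19 ± 0.066 (0.0494). prox1a, the lymphatic transcription factor, is also known from lens, liver and muscle, and both of its probes passed. lyve1a did not pass without any of the replicates, at adjusted p values of 0.160 to 0.181 without replicates 1 and 2 and of 0.0702 without replicate 3.

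Of 15 genes of BMP and TGF-β signalling in endothelium, 5 were called positive and 2 negative, with a median of -0.010. id2a, an inhibitor of bHLH factors, stood at 0.52 ± 0.033 (limma adjusted p = 0.000972) and the type 2 BMP receptor gene bmpr2b at 0.67 ± 0.21 (0.00227). Of the same Id family of bHLH inhibitors, id3 (-0.34 ± 0.074, adjusted p = 0.00627) and id1 (-0.48 ± 0.23, 0.0104) stood on the negative side. id2b stood on the positive side with id2a, at 0.27 ± 0.18 (adjusted p = 0.049). id1 lost its call without replicate 2 (adjusted p = 0.0531), and id2b without replicate 1 (0.175) and without replicate 2 (0.214). The probes of id2a averaged 0.76, 0.75 and 0.052. id3 lost its call without replicate 2 (adjusted p = 0.0599), and the list's count fell to 2 there. Of 6 cerebral cavernous malformation genes, which keep endothelial junctions closed, 0 passed by limma. At an unadjusted p under 0.05, where at least 19.4% of all genes lie, there were 2. ccm2l had the smallest adjusted p (0.0548, mean 0.18 ± 0.064), and 1 gene of the list passed without replicate 3.

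Of 8 measured genes listed for the brain vessel barrier, the transporter gene abcb5 alone passed, at 0.18 ± 0.026 (limma adjusted p = 0.0438). Whether abcb5 stands for brain vessels in whole embryos was not tested, and the listed abcb4 was not matched in the annotation. Only 1 of the 2 abcb5 probes passed (0.31, beside 0.056). The call of abcb5 was lost without replicate 1 (adjusted p = 0.149) and without replicate 2 (0.256), while 3 genes of the list passed without replicate 3. Genes of oxygen sensing, the pathway upstream of VEGF-A, were set beside vegfaa. Of 11 measured, 2 were called negative and 0 positive by limma, with a median of -0.034. At an unadjusted p under 0.05, where at least 19.4% of all genes lie, 3 were negative and 0 positive. egln3, a HIF hydroxylase that is itself a HIF target, had -0.13, -0.40 and -0.46, a mean of -0.33 ± 0.17 (adjusted p = 0.0220). vhl, which marks HIF for breakdown, had -0.34, -0.12 and -0.71, a mean of -0.39 ± 0.30 (adjusted p = 0.0441). egln3 lost its call without replicate 2 (adjusted p = 0.169) and vhl without replicate 1 (0.0762). Neither gene passed with a dye term. In the fit over all probes the single probe of egln3 passed (limma adjusted p = 0.0412) and that of vhl did not (0.0741).

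**Figure D4:**
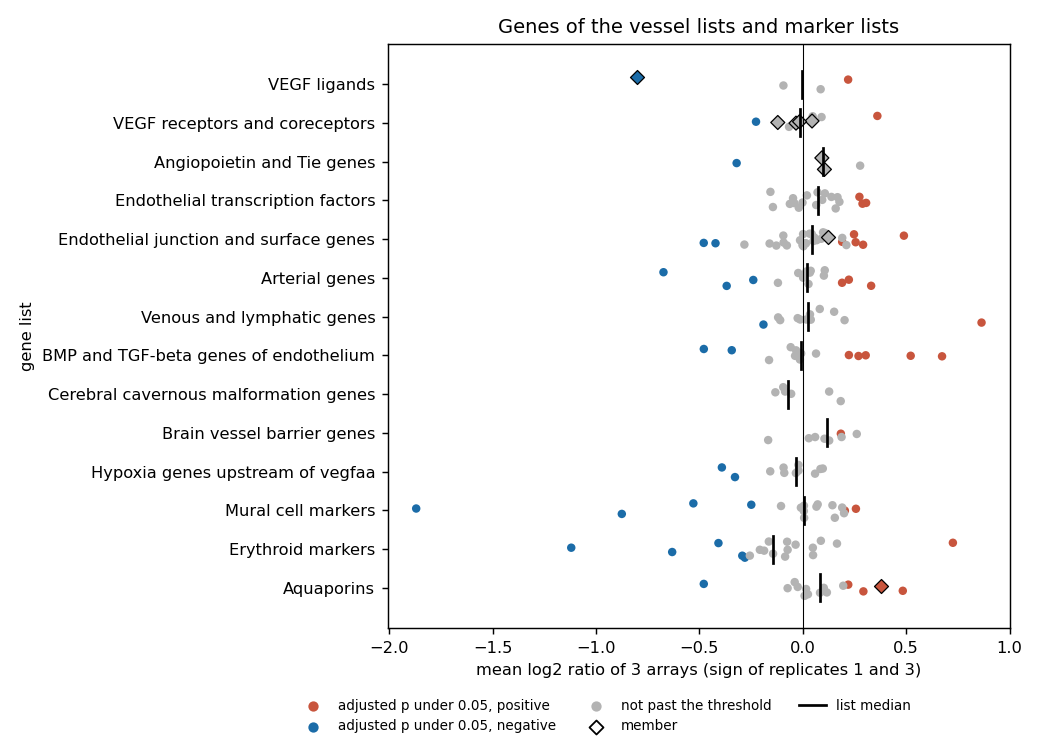
Mean log2 ratio of 3 arrays (horizontal axis) of every measured gene of the 14 lists, 1 row per list, coloured by limma's call, with diamonds for the members and a black line for the list median. The medians lie between -0.14 for the erythroid markers and 0.12 for the brain vessel barrier genes, and single genes such as acta2 at -1.87 and prox1a at 0.86 lie far from their lists.

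Markers of the other cell types of vessels were measured in RNA of whole embryos, so their ratios cannot be assigned to cells of vessels. Of 17 mural cell markers, which stand for smooth muscle and pericytes, 4 were called negative and 2 positive, with list means of -0.15, -0.065 and -0.19 on replicates 1, 2 and 3 and a median of 0.0065. The contractile genes acta2 (-1.87 ± 0.18, limma adjusted p = 4.82e-05) and tagln (-0.88 ± 0.13, 0.000359) and the desmin gene desma (-0.53 ± 0.053, 0.00105), also expressed in heart and skeletal muscle, led the negative side. Other smooth muscle genes lay above 0: the myosin light chain gene myl9a was called positive (0.26 ± 0.14, adjusted p = 0.0388, lost at 0.0792 without replicate 1 and 0.272 without replicate 2), and myh11a (0.155, adjusted p = 0.184) and cnn1b (0.066, adjusted p = 0.439) did not pass. In all, 11 of the 17 means were above 0. The pericyte receptor gene pdgfrb had 0.14 ± 0.068 and did not pass (adjusted p = 0.114). The count was 3 both without replicate 1 and without replicate 2.

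Of 19 erythroid markers, 5 were called negative and 1 positive, with list means of -0.15, -0.11 and -0.20 on the 3 arrays and a median of -0.14. The embryonic globin genes hbbe3 (-1.12 ± 0.29, limma adjusted p = 0.000899) and hbbe2 (-0.63 ± 0.21, 0.00317) led the negative side, and whether their probes share sequence was not tested. Of the 19 markers, 5 had a mean above 0, among them the globin gene hbae3 (0.17) and the haem synthesis gene alas2 (0.087), neither of which passed (adjusted p = 0.195 and 0.445). The carbonic anhydrase gene ca2, not specific to red blood cells, stood at 0.73 ± 0.15 (0.000898). The count fell to 3 without replicate 2. The part of red blood cells or mural cells in the ratios of the members was not tested.

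The genes of the 14 lists whose 3 values were nearest to those of a member that passed were found by the smallest of the largest differences over the 3 arrays, among 177 genes. For aqp1a.1 they were bmper, a secreted BMP regulator of endothelium (0.28, 0.38 and 0.25, largest difference 0.15), and nrp2b (0.28, 0.35 and 0.45, largest difference 0.16). For vegfaa they were hbbe2 (-0.66, -0.40 and -0.83, largest difference 0.35) and tagln (-0.86, -0.76 and -1.01, largest difference 0.38). bmper passed with a mean of 0.30 ± 0.065 (limma adjusted p = 0.00909) and lost its call without replicate 2 (0.110). With 3 arrays, nearness is a description of these ratios only.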

How the data were processed

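Whole-embryo RNA of 3 treated replicates was measured on 3 two-channel arrays against 1 untreated pool. The authors deposited 1 log ratio per probe and array, taken here as log2. The submitters' processing notes name Partek; how the ratios were corrected and normalised, their log base and their numerator are not stated there or in the labels. A size of 3.98, the largest, would be 9524-fold on base 10 but 15.8-fold on base 2, which was taken as likely; on base 10 each fold would be larger and limma's test the same. Array medians lay between -0.0050 and -0.0029. No intensities were used, so dim probes could not be left out.

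The sign of replicate 2 (dyes swapped) was turned. After 45 controls were dropped, 23717 of 43603 probes had 1 gene symbol in the platform annotation, 0 several and 19886 none. Probes were averaged by Entrez identifier into 15571 genes. Listed symbols absent from the annotation were sought among synonyms in a RefSeq table of the GRCz12tu assembly, and 186 of 229 listed symbols gave a measured gene. Ratios were fitted to a constant in limma 3.58.1 (lmFit, eBayes, 2 residual degrees of freedom) in R 4.3.3, with Benjamini-Hochberg adjustment at 0.05 over all genes, and separately over all probes. The procedure was tested on simulated data with independent errors on each array. The simulation held no shared pool error and no dye swap, so it does not give the error rate of this design. The pool counts as 1 control sample, so the spread of untreated embryos is left out. With 3 arrays, an exact sign-flip test cannot go below p = 0.25 two-sided and was not used. Leave-one-out fits keep 1 residual degree of freedom, as does the dye term.

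The members and lists were chosen with earlier results of these data known. Genes named are all measured members, up to 3 genes with the smallest adjusted p among those past the threshold in each list (the 1 smallest where none passed), paralogs of members, and the 2 nearest genes to each member that passed. The genes vegfd, erg, etsrp, id1, id2b, pdgfrb, myl9a, myh11a, cnn1b, hbae3 and alas2 were added after their values were seen. Python 3.11.15 and matplotlib 3.10.9 made the plots.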

Additional observations from a re-analysis of the deposited data

How the results depend on the processing

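The calls of vegfaa and aqp1a.1 held under every alternative run except that with replicate 2 left unturned, where 0 of the 9 members and 0 of the 177 other listed genes passed by limma (0 and 0 at an unadjusted p under 0.05), and 0 of all genes (34 at an unadjusted p under 0.05). Leaving replicate 2, with its swapped dyes, unturned sets its ratios against those of replicates 1 and 3. That run therefore did not check the calls. The count of members past the threshold was 2 under median centring, scale and quantile normalisation, the dye term, array weights and the robust prior. It was also 2 at the thresholds of 0.01 and 0.1, under the other probe rules, and when every probe had to pass. The probe rules could not change the ratios of vegfaa and aqp1a.1, which have 1 probe each, and so did not check these calls. Without each replicate in turn the count was 2, and it was 3 with fli1 counted for fli1a, a choice made after the data were seen. The median ratio of the members changed sign to -0.016 with the most variable probe of each gene, was 0.012 with the median of probes and 0.013 with array weights, and lay between 0.021 and 0.078 without single replicates. Over all genes, 3013 passed, against 1465 with a dye term, 4594 with array weights, 1434 at a threshold of 0.01 and 1041 to 3693 without single replicates. Among the 177 other listed genes, 48 passed, against 20 with a dye term, 18 at a threshold of 0.01 and 15 to 60 without single replicates. Over all probes, 4522 passed, against 1210 with a dye term and 621 to 6539 without single replicates, alternatives added after the data were seen. The dye term and the fits on 2 arrays leave 1 residual degree of freedom, and the array weights favoured replicate 2 (2.50, beside 0.755 and 0.529). Calls kept in the fits with 1 residual degree of freedom lean on the variance of all genes, so these fits check them only weakly. No paired analysis was possible because the labels give 1 treated group and 1 shared pool. The number of arrays limits the precision: the median 95% interval of a gene extended 0.14 log2 units to each side.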
